A study of Mus musculus with 4 samples.

Results

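The Hox genes encode homeodomain transcription factors that give body regions and limb segments their positional identity. Mice carry them in 4 clusters, and 38 of them are described here, out of 35689 genes in the deposited table. They were chosen by name and Ensembl gene identifier from a given list of the Hoxa, Hoxb, Hoxc and Hoxd cluster genes, with 10, 10, 9 and 9 members. All 38 are protein-coding and all were found in the table. A further Hox gene outside that list is not reported here.

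RNA was sequenced from whole forelimb buds at E11.5, and each of the 4 libraries was made from the left and right buds of 1 embryo. Knockout embryos were PrxCre/+;Smarcc1c/c, so that both copies of Smarcc1 were conditional and a PrxCre transgene was present, and 1 had 40 somites (replicate 1) and 1 had 39 (replicate 2). Control embryos were Prx+/+;Smarcc1c/c and carried the same conditional copies but no Cre, again with 1 embryo of 40 somites (replicate 1) and 1 of 39 (replicate 2). Smarcc1 codes for BAF155, around which the BAF chromatin remodelling complex is built. The Prx enhancer drives Cre in limb bud mesenchyme, so ectoderm, blood vessels, blood and immigrant muscle precursors in the same bud keep their Smarcc1.

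Genes of a Hox cluster lie in a fixed order and are numbered by paralog group, and their activation in time and space follows that order. In limb mesenchyme the Hoxa and Hoxd clusters do most of the patterning. Genes of groups 9 and 10 act mainly in the upper limb segment, those of group 11 in the forearm and those of group 13 in the hand plate, and the posterior Hoxd genes also help to start Shh expression.

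As a check of the labels, Smarcc1 stood at 46.2 and 38.4 TPM in knockout replicates 1 and 2 and at 112 and 119.6 TPM in control replicates 1 and 2 (0.365 of the control mean). TPM, an abundance unit that sums to 1000000 in each library, is scaled for transcript length and library total, so levels of different genes can be compared. The forelimb gene Tbx5 stood at 31.9 to 43.1 TPM in all libraries. The hindlimb genes Pitx1 and Tbx4 both passed as higher in the knockout. Summed TPM of 4 Y-linked genes was 0.867 and 0.566 in the knockout and control at 40 somites and 118 and 113 at 39, so sex coincided with stage and the stages cannot be told apart from the sexes. Where values are given in pairs, the embryo of 40 somites comes first. Each library had 12555 to 12689 genes at 1 TPM or more, and the read depth is unknown. The listed RNA amounts were 310 and 330 ng for the knockout embryos and 340 and 580 ng for the controls. Their part in the values was not tested.

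Promoter sequences are shown for Hoxd8, Hoxd10 and Hoxd11, which were lower in the knockout at both stages, and for their neighbours Hoxd12 and Hoxd13, which were not. Each is a RefSeq window of GRCm38.p6 (the mm10 build), plus strand, 5′ to 3′, from 250 bases before to 50 bases after a transcription start. Capitals mark any match, on either strand, to the TATA box TATAAA, the CCAAT box CCAAT, the PBX-HOX site TGATTNAT or the GLI site GACCACCCA.
Hoxd8, chr2:74704365-74704664: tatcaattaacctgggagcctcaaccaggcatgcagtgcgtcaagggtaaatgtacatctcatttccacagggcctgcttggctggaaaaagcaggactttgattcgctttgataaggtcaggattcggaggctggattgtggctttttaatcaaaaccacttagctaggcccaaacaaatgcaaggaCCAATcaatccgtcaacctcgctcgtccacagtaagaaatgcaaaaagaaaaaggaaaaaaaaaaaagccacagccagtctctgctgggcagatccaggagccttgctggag
Hoxd10, chr2:74691641-74691940: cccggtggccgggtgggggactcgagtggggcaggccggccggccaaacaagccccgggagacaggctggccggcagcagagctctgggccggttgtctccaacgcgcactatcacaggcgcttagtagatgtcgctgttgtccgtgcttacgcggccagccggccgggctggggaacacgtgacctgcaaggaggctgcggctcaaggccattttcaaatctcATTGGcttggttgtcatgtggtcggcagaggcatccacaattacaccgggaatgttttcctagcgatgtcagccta
Hoxd11, chr2:74682073-74682372: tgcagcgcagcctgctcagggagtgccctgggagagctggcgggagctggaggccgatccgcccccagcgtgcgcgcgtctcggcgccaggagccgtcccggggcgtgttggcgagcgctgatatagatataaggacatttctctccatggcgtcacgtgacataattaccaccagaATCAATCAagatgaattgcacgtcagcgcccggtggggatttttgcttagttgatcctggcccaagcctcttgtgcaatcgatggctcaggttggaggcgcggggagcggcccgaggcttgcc
Hoxd12, chr2:74674763-74675062: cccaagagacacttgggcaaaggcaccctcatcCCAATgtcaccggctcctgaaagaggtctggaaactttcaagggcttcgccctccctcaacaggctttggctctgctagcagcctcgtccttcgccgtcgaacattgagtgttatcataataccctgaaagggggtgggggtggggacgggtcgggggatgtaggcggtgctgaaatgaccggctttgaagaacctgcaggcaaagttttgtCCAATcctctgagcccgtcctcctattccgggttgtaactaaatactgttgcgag
Hoxd13, chr2:74667975-74668274: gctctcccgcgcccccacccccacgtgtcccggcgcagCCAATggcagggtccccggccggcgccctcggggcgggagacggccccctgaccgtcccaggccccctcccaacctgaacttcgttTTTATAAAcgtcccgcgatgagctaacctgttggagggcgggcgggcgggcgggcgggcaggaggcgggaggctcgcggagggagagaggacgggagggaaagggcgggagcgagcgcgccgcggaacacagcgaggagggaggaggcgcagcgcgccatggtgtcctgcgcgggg

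The CCAAT box was found once in the windows of Hoxd8 and Hoxd10, at -62 and -26 from the start. Hoxd12 held it at -217 and -5. Hoxd13 held it at -212 and had overlapping TATA matches on both strands at -126 and -124. The Hoxd11 window shown is that of an internal start and holds a PBX-HOX match at -73, while the window at the gene's outer start (chr2:74679308-74679607) held no match. The windows of Hoxd4 and Hoxd9, also lower in the knockout at both stages, are not shown. That of Hoxd9 held no match, and that of Hoxd4 held CCAAT boxes at -208 and 8 and a TATA box at -10. Windows were given for 22 of the 38 genes, with 24 starts. Of these 24, 15 held a CCAAT box, against 37.4% of 32851 promoters of all genes. A TATA box was in 4 (13.6% of all promoters), a PBX-HOX site in 2 (3.22%) and a GLI site in 0 (0.253%). A match is a description of the letters only.

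The forelimb bud transcribed mainly the Hoxa and Hoxd clusters. The listed Hoxa genes together made 46.2% to 49.6% of all Hox TPM in the 4 libraries and the Hoxd genes 45.4% to 50.1%, against 2.83% to 4.45% for Hoxc and 0.677% to 1.19% for Hoxb. Hoxa10 had the highest level of the 38 in every library, at 201 and 236 TPM in knockout buds and 201 and 250.9 TPM in control buds. Hoxd13 came second in every library. Hoxd11 and Hoxa9 took places 3 and 4, with Hoxa9 ahead in both knockouts and Hoxd11 ahead in both controls. Hoxd10, Hoxd12, Hoxa11, Hoxa13 and Hoxd9 filled places 5 to 9 in an order that changed between libraries.

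**Figure D1:**
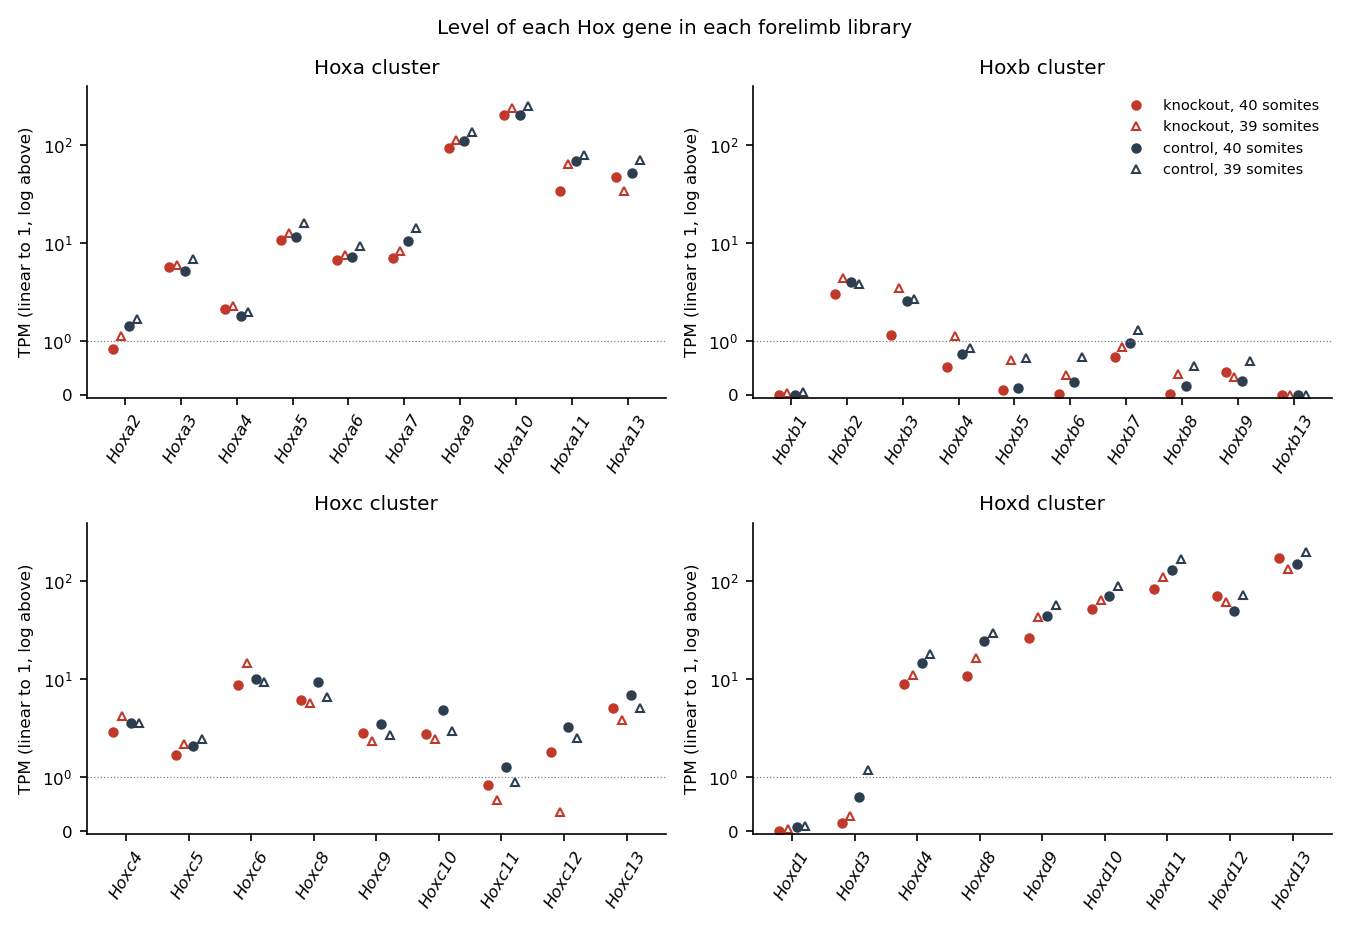
TPM of each of the 38 Hox genes in the 4 forelimb libraries, by cluster and in order of paralog group; the axis is linear up to 1 TPM (dotted line) and logarithmic above, and each point is 1 library. Hoxa10 reaches 250.9 TPM and Hoxd13 199 TPM, while 8 of 10 Hoxb genes stay near or under 1 TPM.

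Members of low level were mostly in Hoxb. Hoxb13 was listed at 0 in all libraries, and Hoxb1 at 0 in both libraries of 40 somites and under 0.06 TPM in the others. Genes were tested where at least 2 libraries reached 1 TPM, which left out 11 members: Hoxb1, Hoxb4, Hoxb5, Hoxb6, Hoxb7, Hoxb8, Hoxb9, Hoxb13, Hoxc11, Hoxd1 and Hoxd3. Of these 11, 7 reached 1 TPM in no library and 4 in a single one. Hoxd3 stood at 0.160 and 0.277 TPM in knockout buds and 0.634 and 1.17 TPM in control buds, and Hoxc11 at 0.858 and 0.577 against 1.27 and 0.909 TPM. Hoxb5, Hoxb6 and Hoxb8 were lowest in both embryos of 40 somites: Hoxb5 stood at 0.0959 TPM in the knockout and 0.124 TPM in the control at 40 somites, and at 0.648 and 0.680 TPM at 39. The genotypes overlapped for these 3 genes. Of the 7 spinal cord and somite markers looked at beside them, Olig2 was listed at 0 in all libraries and Pax6 and Sox1 were under 0.05 TPM. Nkx6-1 stood at 0.126 and 0.194 TPM in knockout buds and 0 in both controls, and Uncx at 0.354 and 0.411 against 0.0356 and 0 TPM. Tbx6 stood at 0.478 and 0.851 against 0.305 and 0.797 TPM. Meox1 was by far the highest, at 3.47 and 4.86 against 3.78 and 3.38 TPM. The 7 summed to 4.43 and 6.37 TPM in knockout buds and 4.13 and 4.18 TPM in control buds, and their part in these Hoxb values was not tested.

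The design compares forelimbs of Smarcc1 conditional embryos with and without PrxCre. How much Smarcc1 RNA was left in the knockout mesenchyme was not measured. No Hox gene passed the test on its own, and most had lower values in the knockout. Values were compared as log2(TPM + 1), knockout minus control, a scale that shrinks the change of genes with low TPM. On this scale the lowest differences were those of Hoxc12 (-0.98), Hoxd8 (-0.97), Hoxd4 (-0.66), Hoxa11 (-0.64), Hoxa7 (-0.62) and Hoxd11 (-0.61), so they were not limited to the Hoxd cluster. The test was limma over all 12809 genes that met the filter, with Benjamini-Hochberg adjustment at 0.05 and n = 2 embryos per genotype. No exact permutation test was run, since with groups of 2 the smallest p it allows is 0.333. Of the 27 members tested, 0 were higher and 0 lower, where 0.812% of all genes tested were higher and 0.492% lower. All 27 reached 1 TPM in both genotypes, 25 of them in every library. At an unadjusted p under 0.05, 7 members were lower and 0 higher in limma, against 6.89% and 6.78% of all genes. With somite stage added to the model as a replicate block, 5 members passed as lower and 0 as higher (2.08% of all genes each way): Hoxd8, Hoxd11, Hoxd4, Hoxd10 and Hoxa7.

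Of the 27 members, 24 had a log2 fold change below 0 (48.2% of all genes; 23 under quantile scaling, where Hoxc4 was above 0), and their median was -0.27 against 0.0084 over all genes. Both knockout libraries lay below both controls for 12 members (21.2% of all genes) and above them for 1, Hoxa4 (22.7%). At both stages the knockout was lower for 19 members (33.0% of all genes), higher for Hoxa4 alone, and of opposite sign for the other 7. These counts describe genes that lie side by side and share cells, and the list has no test of its own. Summed over all 38, Hox TPM was 871 and 974 in knockout buds and 1008 and 1268 in control buds, which is 0.864 of control at 40 somites and 0.768 at 39. Summed TPM of 6 limb mesenchyme markers moved beside it, at 0.866 and 0.805 of control, and at 0.950 and 0.899 without Msx1, a marker that itself passed as lower. Of those markers Prrx1 stood at 130 and 140 TPM against 188 and 201 TPM and was called lower with stage in the model (limma adjusted p = 0.101, and 0.0293 with stage), while Lmx1b stood at 43.9 and 54.5 against 25.6 and 31.6 TPM and was called higher with stage (limma adjusted p = 0.105, and 0.0177 with stage). Twist1 stood at 163 and 198 against 129 and 151 TPM and was not called. All 8 surface ectoderm markers lay below 0 (0 called, 3 called lower with stage), with summed TPM of 276 and 190 against 404 and 270.3. The part of either marker group in the Hox values was not tested, and in a whole bud fewer cells of a type and less RNA per cell cannot be told apart.

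**Figure D2:**
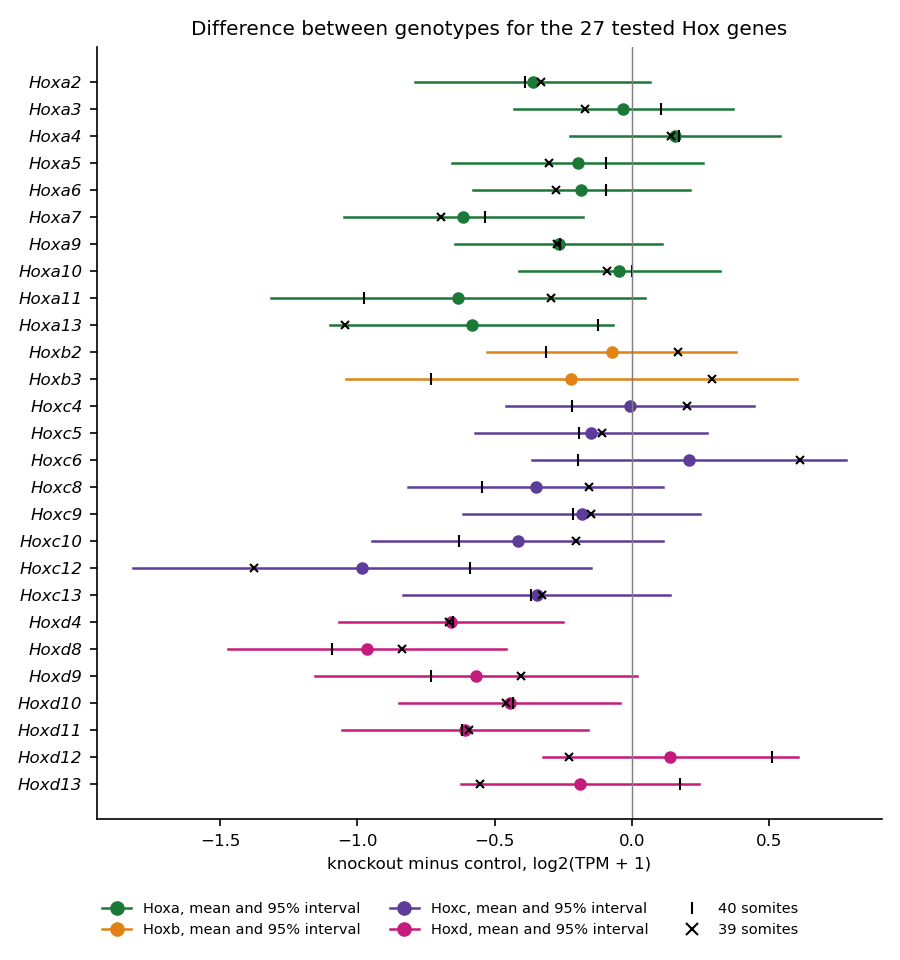
Knockout minus control on the log2(TPM + 1) scale for the 27 tested Hox genes; the point is the mean difference, the line its 95% interval from limma, the tick the difference at 40 somites and the cross that at 39. Hoxd4 to Hoxd11 lie left of 0 at both stages, and Hoxd12 and Hoxd13 lie on different sides of 0 at the 2 stages.

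The Hoxd cluster (chromosome 2, 74668310 to 74765142, mm10) had the lowest median, -0.57 over 7 tested members. Hoxd8, a gene of the early, proximal phase of Hoxd expression, stood at 10.9 and 16.3 TPM in knockout buds and 24.3 and 29.9 TPM in control buds. Both knockouts lay below both controls, and the knockout mean was 0.501 of the control mean. The difference came to -0.97 ± 0.21 (SE, n = 2 a group; limma adjusted p = 0.111, and 0.0202 with stage in the model). Hoxd8 was also called lower without knockout replicate 1 or 2 (limma adjusted p = 0.0463 and 6.53e-06) but not without control replicate 1 or 2 (0.165 and 0.236). In such a fit the lone library is assumed to vary as the other genotype does.

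Hoxd11, which with Hoxa11 shapes the forearm, stood at 83.8 and 110.7 TPM in knockout buds and 129 and 168 TPM in control buds. The groups did not overlap, and the ratio was nearly equal at the 2 stages, 0.648 of control at 40 somites and 0.660 at 39. The difference came to -0.61 ± 0.18 (SE, n = 2 a group; limma adjusted p = 0.227, and 0.0225 with stage), and it was called without knockout replicate 2 (-0.81, limma adjusted p = 0.00537, against 0.199 to 0.422 without any other library). Hoxd10, of the same 5′ part of the cluster, stood at 51.8 and 64.7 TPM against 70.3 and 89.3 TPM, again without overlap. Its ratio was 0.738 of control at 40 somites and 0.724 at 39, and the difference came to -0.45 ± 0.17 on the log2 scale (limma adjusted p = 0.315, and 0.0398 with stage). It was -0.29 without knockout replicate 1 and -0.27 without control replicate 2. Hoxd9 stood at 26.5 and 43.1 TPM against 44.7 and 57.3 TPM, without overlap, and did not pass in either model (limma adjusted p = 0.385, and 0.0582 with stage), though it was called without knockout replicate 2.

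Hoxd4, an anterior member of the cluster, stood at 8.93 and 11.1 TPM in knockout buds and 14.6 and 18.2 TPM in control buds, 0.611 and 0.610 of control within the 2 stages (-0.66 ± 0.17, SE, n = 2 a group; limma adjusted p = 0.162, and 0.0335 with stage). The groups did not overlap, and without knockout replicate 2 it was called lower at -0.80 (limma adjusted p = 0.0253, against 0.175 to 0.295 without any other library). Hoxd4 shares exons on its strand with Hoxd3 and with the gene model Gm28230, so its reads can be divided between them, and the antisense gene Hoxd3os1 is annotated over it. Gm28230, named after its values were seen, stood at 1.80 and 1.64 TPM against 4.88 and 4.51 TPM and passed as lower (limma adjusted p = 0.0375). The 3 gene models summed to 10.9 and 13.02 TPM against 20.1 and 23.9 TPM, which is 0.541 and 0.545 of control at 40 and 39 somites. The part of the division of reads in the Hoxd4 value was not tested.

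Hoxd12 and Hoxd13, the hand plate members at the 5′ end of the cluster, were above their control at 40 somites and below it at 39. Hoxd13 stood at 171 and 135 TPM in knockout buds and 152 and 199 TPM in control buds. The groups overlapped, with a ratio of 1.13 at 40 somites and 0.679 at 39. The difference came to -0.19 ± 0.18 (SE, n = 2 a group; limma adjusted p = 0.729), and without control replicate 2 it was 0.0050, with a change of sign. Hoxd12 stood at 71.2 and 61.2 against 49.7 and 72.03 TPM, a ratio of 1.43 at 40 somites and 0.850 at 39. Chosen after the values were seen, the share of Hoxd TPM held by Hoxd12 and Hoxd13 was 57.1% and 44.4% in knockout buds and 41.5% and 42.7% in control buds. The knockout embryo of 40 somites thus stood apart from the other 3 in the make-up of the cluster. Hoxd4 and Hoxd8 to Hoxd11 together were at 0.643 and 0.678 of control at 40 and 39 somites, and Hoxd12 and Hoxd13 together at 1.204 and 0.724. This split was also made after the values were seen and follows the sign of each gene's difference at 40 somites. That the ratios differed at 40 somites, in a single knockout library, was therefore set by the grouping. At 39 somites they lay near each other, and the difference was not tested.

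**Figure D3:**
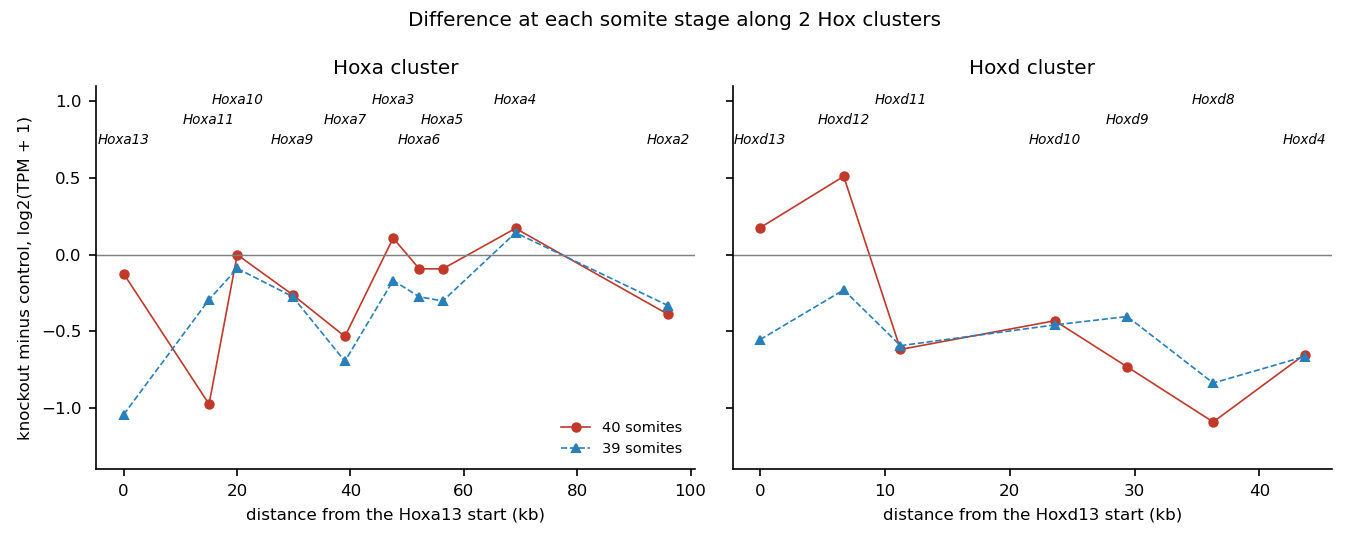
Knockout minus control on the log2(TPM + 1) scale at 40 somites (solid line) and 39 somites (dashed line), 1 library per genotype at each stage, against the distance in kb of each gene model's outer start from that of Hoxa13 or Hoxd13. In the Hoxd cluster the stages lie together at Hoxd11 (-0.62 and -0.59) and apart at Hoxd12 (0.51 and -0.23).

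In the Hoxa cluster (chromosome 6, 52162417 to 52260880) 9 of 10 members lay below 0, with a median of -0.23. Hoxa7, best known from patterning of the trunk, stood at 6.95 and 8.31 TPM in knockout buds and 10.5 and 14.1 TPM in control buds, without overlap. The difference came to -0.62 ± 0.18 (SE, n = 2 a group; limma adjusted p = 0.210, and 0.0489 with stage). The antisense gene Hoxaas3 is annotated over its exons, and without stated use of strand their reads cannot be told apart. Hoxa10 and Hoxa9, the most abundant of the cluster, overlapped between genotypes. The 95% interval of the difference was -0.41 to 0.32 for Hoxa10 and -0.64 to 0.11 for Hoxa9, and neither passed (limma adjusted p = 0.937 and 0.534). For Hoxa10 the difference was 0.07 without knockout replicate 1 and 0.11 without control replicate 2, so its sign rests on single libraries. For Hoxa9 the difference of -0.27 became -0.12 without either knockout replicate 1 or control replicate 2.

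Hoxa11 and Hoxa13, the forearm and hand plate genes of this cluster, were separated between genotypes, each with its larger fall in a different knockout embryo. Hoxa11 stood at 34.1 and 64.1 TPM in knockout buds and 68.0 and 78.8 TPM in control buds, 0.501 of control at 40 somites and 0.813 at 39. Hoxa13, which is needed for digits, stood at 47.2 and 33.6 TPM against 51.6 and 70.3 TPM, 0.915 of control at 40 somites and 0.478 at 39. Neither passed (limma adjusted p = 0.407 and 0.300, with stage 0.114 and 0.199; n = 2 a group). The difference came to -0.64 ± 0.28 (SE) for Hoxa11 and -0.58 ± 0.21 (SE) for Hoxa13. Without knockout replicate 1, Hoxa13 was called lower at -0.82 (limma adjusted p = 0.00425, against 0.246 to 0.706 without any other library), and without knockout replicate 2 Hoxa11 was called lower. The Hoxa13 difference was -0.34 without knockout replicate 2 and -0.37 without control replicate 2. Hoxa11 is overlapped by the antisense gene Hoxa11os. The ratio of Hoxa13 to Hoxa11 TPM, chosen after the values were seen, was 1.39 in the knockout of 40 somites, 0.523 in the knockout of 39, and 0.759 and 0.892 in control buds.

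The remaining Hoxa genes, of paralog groups 2 to 6, were of low or moderate level and none passed. Hoxa5, the highest of them, stood at 10.6 and 12.7 TPM in knockout buds and 11.3 and 15.9 TPM in control buds, and Hoxa6 at 6.67 and 7.41 against 7.18 and 9.17 TPM. Both overlapped between genotypes. Hoxa4 was the only tested member above both controls in both knockouts, at 2.11 and 2.27 against 1.76 and 1.97 TPM. Hoxa2, at 0.838 and 1.11 against 1.41 and 1.66 TPM, lay below its controls, while Hoxa3, at 5.66 and 5.89 against 5.18 and 6.75 TPM, overlapped. Hoxa2 and Hoxa3 share exons with the gene model Gm28308, and the 3 models summed to 0.885 of control.

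The Hoxc cluster (chromosome 15, 102921103 to 103036852), whose 5′ genes are known mainly from the hindlimb, trunk and skin, gave low values with 7 of 8 tested members below 0 and a median of -0.27. Hoxc12 stood at 1.79 and 0.356 TPM in knockout buds and 3.21 and 2.52 TPM in control buds. The groups did not overlap, and the knockout of 39 somites was the lowest library by far. The difference came to -0.98 ± 0.34 (SE, n = 2 a group; limma adjusted p = 0.286, and 0.0895 with stage). Without knockout replicate 1 it was called lower at -1.50 (limma adjusted p = 1.84e-06, against 0.316 to 0.632 without any other library), a value that then rests on the 0.356 TPM of 1 embryo. Without knockout replicate 2 the difference was -0.46.

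Hoxc8, a gene of the thoracic trunk, stood at 6.17 and 5.75 TPM in knockout buds and 9.47 and 6.51 TPM in control buds, without overlap (-0.35 ± 0.19, SE, n = 2 a group; limma adjusted p = 0.508). The difference was -0.11 without control replicate 1 and -0.59 without control replicate 2. Hoxc10, at 2.77 and 2.45 against 4.83 and 2.97 TPM, was also separated, and Hoxc5, with which it shares exons, was not. Hoxc6, the highest of the cluster, stood at 8.74 and 14.8 TPM against 10.2 and 9.31 TPM. Its fitted difference was 0.21 ± 0.24 (SE, n = 2 a group; limma adjusted p = 0.783) and became -0.14 without knockout replicate 2. Hoxc13, at 5.09 and 3.81 against 6.85 and 5.04 TPM, was 0.743 of control at 40 somites and 0.756 at 39, and its groups overlapped, with both genotypes lower at 39. Hoxc4 and Hoxc9 overlapped as well.

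In the Hoxb cluster (chromosome 11, 96194316 to 96368256), which acts mainly in the hindbrain and trunk, only Hoxb2 and Hoxb3 were high enough to test. Hoxb2 stood at 2.998 and 4.34 TPM in knockout buds and 3.97 and 3.76 TPM in control buds, and Hoxb3 at 1.14 and 3.46 against 2.55 and 2.65 TPM. In both genes the groups overlapped, with the knockout of 40 somites lowest and that of 39 highest. The log2 fold changes were -0.07 ± 0.19 and -0.22 ± 0.34 (SE, n = 2 a group; limma adjusted p = 0.921 and 0.853), and both were above 0 without knockout replicate 1, at 0.14 and 0.31. Both genes are overlapped by the antisense gene Hoxb3os.

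Added up by paralog group, which puts together genes of similar sequence and partly shared function, group 10 had the largest sum in every library, followed by group 13 in all but the knockout of 39 somites, where group 11 came second. Group 10 summed to 255 and 303 TPM in knockout buds and 276 and 343 TPM in control buds, a ratio of 0.901. Group 11, which patterns the forearm, summed to 119 and 175 TPM against 199 and 247 TPM. The knockouts lay below both controls there, with a ratio of 0.660. The same held in groups 4, 7, 8 and 9 and, at very low TPM, in group 1. Group 8 had the lowest ratio among groups above 1 TPM, 0.557, from 17.0 and 22.4 TPM against 33.9 and 36.9 TPM. Its value was set mostly by Hoxd8, and without that gene the ratio was 0.739. Group 7 summed to 7.65 and 9.20 TPM against 11.47 and 15.4 TPM, nearly all of it from Hoxa7.

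In group 13 the stages went opposite ways, with 224 and 173 TPM in knockout buds against 210.2 and 275 TPM in control buds. The ratio was 1.06 at 40 somites and 0.629 at 39. Only Hoxd13 was above its control at 40 somites (ratio 1.13). Hoxa13 (0.915 and 0.478) and Hoxc13 (0.743 and 0.756) were below control at both stages. Without Hoxd13 the ratio of the group means was 0.670. Group 12, almost all Hoxd12, had a ratio of 1.38 at 40 somites and 0.826 at 39. Groups 2, 3, 5 and 6 had ratios from 0.857 to 1.03, group 4 of 0.733 and group 9 of 0.787. Group 1, known from the hindbrain, did not reach 0.15 TPM in any library. These sums are descriptions without a test.

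**Figure D4:**
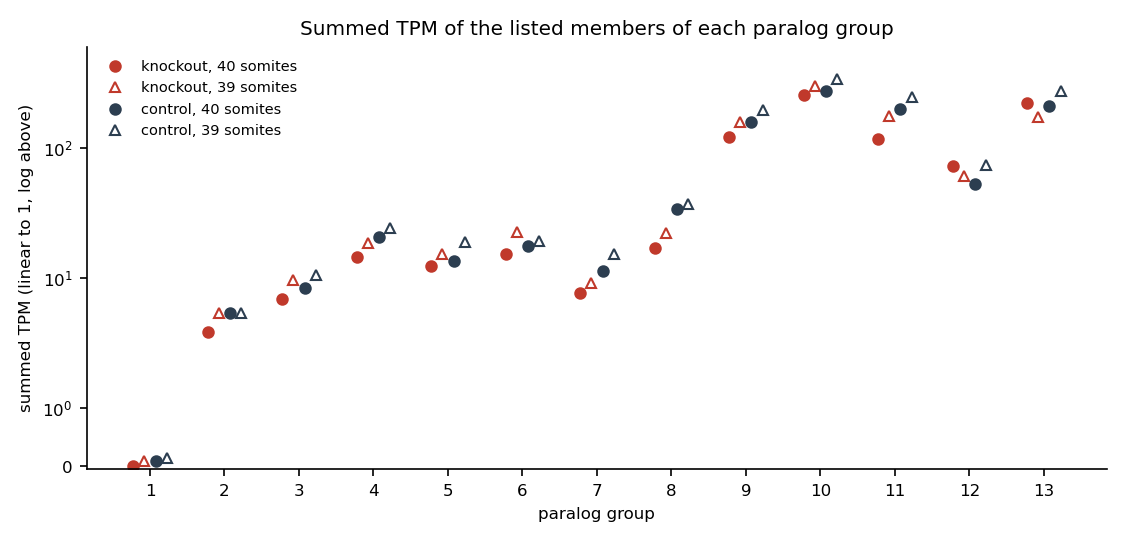
Summed TPM of each paralog group, 1 to 13, in each of the 4 forelimb libraries, with a logarithmic axis above 1 TPM and 1 point per library. The knockouts lie below both controls in group 11 (119 and 175 against 199 and 247 TPM). They also do so in groups 4, 7, 8 and 9 and, at very low TPM, in group 1. They overlap the controls in the other groups, among them 10, 12 and 13.

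The 13 tested members of paralog groups 9 to 13, the limb-patterning end of the clusters, had a median of -0.42, and 12 of them were below 0. The 14 tested members of groups 1 to 8 had a median of -0.19, and 12 of them were also below 0. With stage in the model, 3 members of groups 1 to 8 and 2 of groups 9 to 13 were called lower. Tested members of groups 1 to 8 were mostly of lower TPM, where the log2(TPM + 1) scale shrinks a change more. The difference between these medians was not tested. Of 10 tested genes that flank the clusters 0 were called, and their median was 0.0039. At an unadjusted p under 0.05 in limma 1 was higher, Calcoco1, and 3 were lower, against 6.78% and 6.89% of all genes. These genes were named after their values were seen. The homeobox gene Evx2, next to Hoxd13, stood at 3.53 and 1.32 TPM against 6.09 and 9.72 TPM (-1.43 ± 0.35; limma adjusted p = 0.154, and 0.111 with stage). Evx1, next to Hoxa13, stood at 6.405 and 2.96 TPM against 8.62 and 13.6 TPM (-1.13 ± 0.34; limma adjusted p = 0.219, and 0.153 with stage). In both genes the groups did not overlap and the knockout of 39 somites was lowest. The third, Mtx2, on the other side of the Hoxd cluster, had a difference of -0.43.

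Genes that work with or act on Hox genes were read from lists chosen with earlier results known. Of the 9 Hox cofactors of the Pbx, Meis and Pknox families, which bind DNA together with Hox proteins, 0 were called, 0 had an unadjusted p under 0.05 in limma, and the median was 0.10. Of 15 tested regulators of Hox expression, which include retinoic acid enzymes and receptors and Polycomb and Trithorax proteins, 0 were called higher and 1 lower. This was Cyp26b1, which breaks down retinoic acid in the distal bud, at 35.2 and 39.2 TPM in knockout buds against 79.9 and 117.7 TPM (-1.36 ± 0.19, SE, n = 2 a group; limma adjusted p = 0.0373). With stage in the model, Aldh1a2, which makes retinoic acid, was called higher, at 5.96 and 6.14 against 3.30 and 2.79 TPM (limma adjusted p = 0.0797, and 0.0451 with stage).

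Of 17 tested limb genes downstream of Hox factors, 1 was called higher, 3 lower and 13 neither way, against 0.812% higher and 0.492% lower over all genes. Shh, the signal of the posterior bud margin whose onset needs posterior Hox genes, fell to 4.59 and 6.38 TPM from 17.5 and 14.6 TPM (-1.41 ± 0.18, SE, n = 2 a group; limma adjusted p = 0.0319). The ephrin receptor gene Epha7 rose to 22.4 and 24.6 TPM from 12.7 and 12.4 TPM (0.85 ± 0.12; limma adjusted p = 0.0373). The other 2 called lower were the homeobox genes Msx1 and Msx2. With stage in the model 1 was called higher and 4 lower, against 2.08% of all genes each way. The added gene was Epha3, at 4.40 and 3.76 TPM in knockout buds against 7.95 and 10.1 TPM (limma adjusted p = 0.0646, and 0.0458 with stage). Hand2, Grem1, Gli3, Fgf10 and Sox9 were among those not called.

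Among markers of other cell types in the bud, none was called. Summed myoblast markers were 41.4 and 44.3 TPM in knockout buds and 35.6 and 27.05 TPM in control buds, with 0 of 6 below 0. Endothelial markers were higher at 39 somites in both genotypes, at 47.4 and 68.4 against 37.4 and 67.7 TPM. Markers of erythroid cells, neural crest, neurons and macrophages had 0 calls among 13 genes tested. Their part in the Hox values was not tested.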

How the data were processed

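Bulk RNA was measured in 4 forelimb libraries. The authors deposited TPM values per Ensembl gene, made with Salmon 1.9.0 and mm10 per the submitters' processing notes. For the transcript set, the summing to genes and the use of strand, the method was not given in the sources used here. Of 35727 identifiers, 99.1% had a symbol. TPM keeps no read counts, so depth is unknown and precision rests on the spread between embryos. Genes that reached 1 TPM in 2 or more libraries entered the test. It ran on log2(TPM + 1) in limma 3.58.1 under R 4.3.3 (eBayes with a trend, Benjamini-Hochberg over 12809 genes), which was tested on simulated data. With 2 libraries per genotype the model has 2 residual degrees of freedom, and 1 with stage. Somite stage, from the labels, pairs the libraries. Library deviations from their genotype mean correlated within stages, at Pearson 0.25 across 12809 genes, which are not independent. Full statistics are given for members with an unadjusted p under 0.05 and the 2 of highest mean TPM in each cluster. Hoxa11, Hoxd9, Hoxd12, Aldh1a2, Epha3, the named flanking genes and single markers were added after their values were seen. The members and lists were chosen with earlier results of these data known. Coordinates are from GENCODE (mm10). Of the members, 6 share exons with another gene in the table, and 9 overlap annotated antisense genes not used here. Alternatives were pseudocounts of 0.1 and 5, no filter, a filter at 5 TPM, median-ratio and quantile scaling, the stage block, no trend, a robust variance, a threshold of 0.1, each library left out, and cluster sums without their highest member.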

Additional observations from a re-analysis of the deposited data

Results flagged for a closer look

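For 7 members the knockout lay above the control at one somite stage and below it at the other. With 1 library per genotype at each stage, and sex coinciding with stage, these differences were not tested. Each value is the difference at 40 somites less that at 39, in knockout minus control on the log2(TPM + 1) scale. Of the hand plate genes, Hoxd12 and Hoxd13, but not Hoxa13, were higher in the knockout at 40 somites and lower at 39. The values were 0.51 and -0.23 for Hoxd12 (0.74 apart) and 0.17 and -0.56 for Hoxd13 (0.73 apart). Hoxa3 went in the same direction, at 0.11 and -0.17 (0.28 apart). The other 4 genes, of the Hoxb and Hoxc clusters, were lower at 40 somites and higher at 39. Hoxb3 had -0.73 and 0.29 (-1.02 apart), Hoxc6 -0.20 and 0.61 (-0.81 apart), Hoxb2 -0.31 and 0.17 (-0.48 apart) and Hoxc4 -0.22 and 0.20 (-0.42 apart).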

How the results depend on the processing

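No member was called higher under any alternative run. Members called lower were 0 under the other pseudocounts, filters, scalings and variance settings, the threshold of 0.1 and without either control library. There were 5 with the replicate block by somite stage, which pairs libraries of equal stage, and 0 to 5 with 1 library left out. Without knockout replicate 1 these were Hoxa13, Hoxc12 and Hoxd8, and without knockout replicate 2 Hoxa11, Hoxd4, Hoxd8, Hoxd9 and Hoxd11. A lone library is then assumed to vary as the other genotype does. Over all genes, counts higher and lower were 104 and 63, but 0 and 0 with no filter, 266 and 267 with the block, 308 and 338 or 237 and 264 without knockout replicate 1 or 2, and 41 and 18 or 36 and 14 without control replicate 1 or 2. With quantile scaling 88 were higher and 38 lower. The median over the members ranged from -0.36 to -0.19, and the number below 0 was 20 of 27 without knockout replicate 1 or control replicate 2. The summed TPM ratio of the Hoxb cluster ranged from 0.586 to 1.15 with 1 library left out and that of Hoxd from 0.683 to 0.894, and that of Hoxc was 0.746 without its highest member, Hoxc6. For the 14 members with full statistics, 17 of 179 alternative values changed call or sign. Beyond the sets of libraries fitted, the cause was not tested.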
